A study of Mus musculus with 32 samples.

Results

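Igkv2-137 is the V segment that lies farthest from the J segments of the Igκ light chain locus, and it is 1 of the 112 V segments counted in the rearrangement libraries of B6/Cast pre-B cells. It was chosen by name, with its counts already known, so that its levels, ranks and allelic shares are given as a description without a test. Rearranged Igκ RNA was sequenced in 10 libraries, of which 5 came from the pre-B-cell clones 3, 4, 8, B52 and E9-3 (E93 in the labels) after 48 h without IL-7, 1 from a pre-B-cell pool, and 4 from clone 4 at 12, 24, 36 and 48 h without IL-7. All cells carried a C57BL/6/Castaneous genome, in which reads can be assigned to the B6 or the Cast chromosome where the strains differ. The clones were grown on IL-7 from bone marrow of F1 females of 8 to 12 weeks and each descends from a single cell. IL-7 holds pre-B cells in cycle, and its removal induces recombination of the light chain. The labels describe the pool as cultured pre-B cells listed with the 48 h libraries, whereas the methods on the repertoire name bone marrow cells of 1 female of 12 weeks, so that the pool may differ from the clones in stage as well as in clonality. Clone 3 is described in the study as having lost most V segments of its Cast chromosome in late passages by joining its most distal segment, the passage behind the library used here was not given, and the part of such a loss in its values was not tested. The tables hold V segments only, and the labelled cell type could not be checked against marker genes.

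In a developing B cell the RAG recombinase joins 1 Vκ segment to 1 of the Jκ segments in front of the Cκ exon, and a cell whose first joint is out of frame can use a segment farther away or turn to the other chromosome. A segment that lies in the same direction as the J segments joins by deleting the DNA between them, and a segment in the opposite direction joins by inverting it. Igkv2-137 (ENSMUSG00000076501.2, a functional gene in GENCODE M21) lies on chromosome 6 at 67555497 to 67556216 on the plus strand of mm10, the direction of the J segments, and 3.166 Mb before Jκ1, so that its joining to a J segment would remove every other V segment between them. Its leader exon 1 (67555497 to 67555684) holds the start codon at 67555636, and exon 2 (67555904 to 67556216) encodes the variable domain. Exon 2 is shared over 301 bases with the last exon of Gm42889, a long non-coding RNA on the same strand, and how reads in this overlap were counted was not given in the sources used here. The bases below show the germline end of exon 2 of Igkv2-137 at chr6:67556117-67556244 on the plus strand, because this is the edge at which it is joined, with the heptamer and nonamer of its recombination signal sequence in capitals.
Igkv2-137: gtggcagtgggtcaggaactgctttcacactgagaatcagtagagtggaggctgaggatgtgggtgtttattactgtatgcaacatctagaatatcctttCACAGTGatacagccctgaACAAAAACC

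RAG binds this signal, made of a heptamer, a spacer of 12 bases and a nonamer. The heptamer of Igkv2-137 was CACAGTG and its nonamer ACAAAAACC, the textbook consensus. Read in the direction of each segment at these fixed positions, CACAGTG followed 92 of 111 annotated segments (82.9%), ACAAAAACC 36 (32.4%) and both 34 (30.6%). These matches describe letters only. The signals of its relatives and of 3 segments that had the most reads of an allele in some library are set beside it, all in the 5′ to 3′ direction of the segment with heptamer and nonamer in capitals.
Igkv2-112 (chr6:68220707-68220734, plus strand): CACAGTGatagagccctgaACAAAAACC
Igkv2-109 (chr6:68303159-68303186, plus strand): CACACTGatacagccctgaACAAAAACA
Igkv2-116 (chr6:68152618-68152645, plus strand): CACACTGatacagccctgaACAAAAACA
Igkv1-135 (chr6:67610509-67610536, plus strand): CACAGTGattcagacccgaACAAAAACT
Igkv19-93 (chr6:68736269-68736296, minus strand): CACAGTGatacaaatcataACAAAAACC
Igkv3-7 (chr6:70608037-70608064, plus strand): CACAGTGctccagggctgaACAAAAACC
Igkv2-109 and Igkv2-116 have the spacer of Igkv2-137, and no other of the 111 segments does. Their heptamer and nonamer differ from those of Igkv2-137, whereas Igkv2-112 has the same heptamer and nonamer and another spacer. These are B6 sequences, and the Cast sequence was not used here. How many differences between the strains fall in Igkv2-137 is therefore not known here, and each of its allelic levels and shares rests on those that the authors could use. The study names this segment as an example in which accessible sites lacked a nearby difference to tell the alleles apart, and what this means for its rearranged reads was not tested.

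Complementary DNA was primed within the Cκ exon (70726435 to 70726966) by the oligonucleotide atgctgtaggtgctgtcttt, which matches chr6:70726617-70726636 on the minus strand, and amplified from actggatggtgggaagatggat, which matches chr6:70726457-70726478 on the same strand. The authors counted reads on each V segment and allele, and a percent of library below is the reads of a segment on 1 allele over all reads of the library on both. The 6 libraries of the clones and the pool held 34291 to 320951 reads and those of the time course 1174 to 10958. Intervals are 95% Wilson intervals and cover counting error only, since the reads carry no molecular tag that would tell PCR copies from molecules. With 1 library for each clone and time, no difference between them has a replicate check, except that clone 4 at 48 h has a library in both tables. The transcript of Igkv2-137 was at most 88.7% identical to another counted segment, Igkv2-109, and 75 of 98 functional segments had a closer relative than that.

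Igkv2-137 was among the segments with the most Cast reads in the pool and in the 5 clone libraries of the same table. This was not so in the time course of clone 4, whose 48 h library held it at 0.475%, as number 16. Its Cast reads made up 2.72% of the library of the pool (8741 reads, interval 2.67 to 2.78), and those of the clones reached 6.86% (clone 3, 11367 reads, 6.74 to 6.98), 4.74% (clone 8, 5640 reads, 4.62 to 4.86), 4.06% (clone 4, 2624 reads, 3.91 to 4.21), 3.12% (clone E9-3, 1069 reads, 2.94 to 3.31) and 2.99% (clone B52, 2067 reads, 2.87 to 3.12). The pool was the lowest of these libraries and clone 3 the highest, the clones spanned a 2.29-fold range, and of neighbours in this order the intervals overlapped only between clones E9-3 and B52. Without clone 3 the range of the clones was 1.58-fold. Relative to the pool the Cast level was 2.52-fold (clone 3), 1.74-fold (clone 8), 1.49-fold (clone 4), 1.14-fold (clone E9-3) and 1.10-fold (clone B52), and for clone B52 this depended on the scaling, with a log2 ratio of 0.13 by library totals and 0.90 by median-of-ratios size factors. Over the 5 clones the Cast level was 4.35% ± 1.57 (SD, n = 5 clones, with 1 library each). The 48 h library of the clone 4 time course, at 0.475%, was not part of this mean and SD. As a share of the Cast reads alone, Igkv2-137 gave 6.39% (pool), 6.73% (clone E9-3), 8.74% (clone B52), 12.8% (clone 8), 14.1% (clone 3) and 14.4% (clone 4). In this order the intervals overlapped between the pool and clone E9-3 and between clones 3 and 4. Each clone lay above the pool on this scale, as for 13 of the 92 segments with at least 10 reads in all 6 libraries (14.1%), and the interval of the ratio of clone E9-3 to the pool, 0.990 to 1.12, included 1.

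Within the table of the pool and the clones, Igkv2-137 was the segment with the most Cast reads in clones 3, 4 and 8. In clone 3 it had more than the next Cast segment, Igkv6-20 with 3.22% of the library, in clone 4 more than Igkv11-106 with 2.15%, and in clone 8 more than Igkv19-93 with 2.49%. It was second in the pool, behind Igkv1-110 with 3.40%, and in clone E9-3, behind Igkv3-7 with 10.1%. In clone B52 it was number 3, behind Igkv3-7 with 9.46% and Igkv3-12 with 4.40%. Both of the latter lie near the opposite, Jκ-proximal end of the locus. Of the 112 segments, Igkv2-137 was the only one among the 5 with the most Cast reads in all 6 libraries (0.893% of segments).

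**Figure D1:**
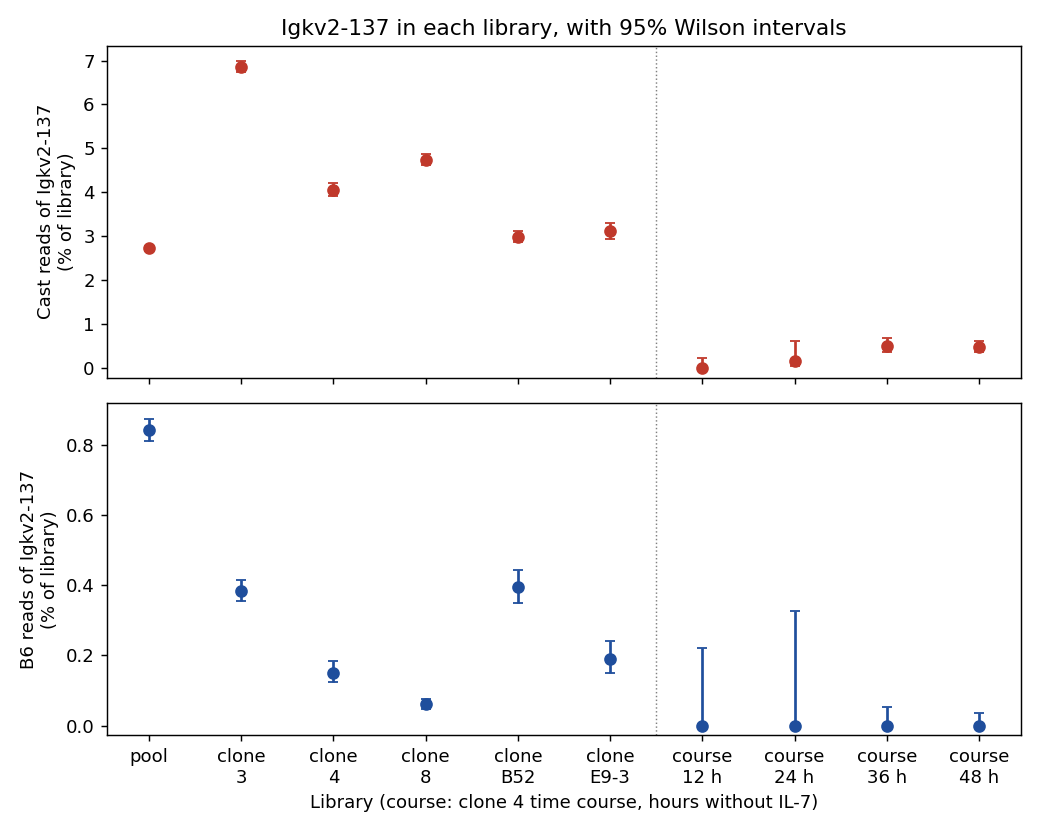
Reads of Igkv2-137 as a percent of all reads of the library, on the Cast allele in the upper panel and on the B6 allele in the lower panel, with 95% Wilson intervals, for the pool, the 5 clones and the 4 libraries of the clone 4 time course. The Cast level lies between 2.72% and 6.86% in the first 6 libraries and at or below 0.494% in the time course, and the B6 level is highest in the pool, at 0.842%.

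The B6 copy of the same segment had far fewer reads, and its levels gave another order of libraries. Its B6 reads made up 0.842% of the library of the pool (2704 reads, interval 0.811 to 0.875), against 0.395% (clone B52, 273 reads, 0.351 to 0.444), 0.383% (clone 3, 634 reads, 0.354 to 0.414), 0.190% (clone E9-3, 65 reads, 0.149 to 0.242), 0.150% (clone 4, 97 reads, 0.123 to 0.183) and 0.0605% (clone 8, 72 reads, 0.0480 to 0.0762). The pool was highest on B6, where it was lowest on Cast, and the intervals overlapped between clones B52 and 3 and between clones E9-3 and 4. The clones spanned a 6.53-fold range on B6. By rank among the B6 segments, Igkv2-137 was number 26 (pool), 36 (clone B52), 38 (clone 3), 61 (clone E9-3), 71 (clone 4) and 84 (clone 8). The B6 level lay below the pool in each clone, as for 21 of 92 segments (22.8%).

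Accordingly, most reads of Igkv2-137 came from Cast in all 6 libraries, as for 9 of 92 segments (9.78%). The B6 share of its reads was 23.6% (pool, interval 22.9 to 24.4), 11.7% (clone B52, 10.4 to 13.0), 5.73% (clone E9-3, 4.52 to 7.24), 5.28% (clone 3, 4.90 to 5.70), 3.56% (clone 4, 2.93 to 4.33) and 1.26% (clone 8, 1.00 to 1.58). The intervals overlapped between clones E9-3 and 3 and were apart between the other neighbours in this order. All other segments of the same libraries together were read mostly from B6, with B6 shares of 58.7% (pool), 67.7% (clone B52), 55.3% (clone E9-3), 54.8% (clone 3), 74.8% (clone 4) and 66.0% (clone 8). Igkv2-137 therefore had most reads on the allele opposite to that of the rest of the library in each case. The share was below the pool in each clone, as for 15 of 92 segments (16.3%).

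**Figure D2:**
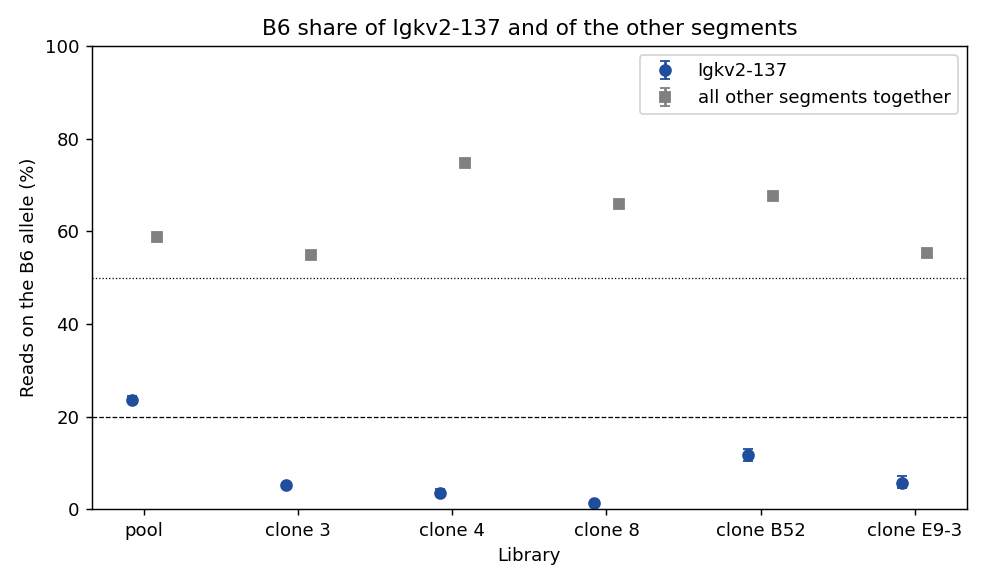
Percent of reads on the B6 allele for Igkv2-137 (blue circles) and for all other V segments together (grey squares) in the pool and the 5 clones, with 95% Wilson intervals. The dotted line marks 50% and the dashed line 20%, below which over 80% of reads are on Cast, and Igkv2-137 lies below the dashed line in the 5 clones and at 23.6% in the pool.

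With over 80% of its reads on Cast taken as skewed, Igkv2-137 was skewed in the 5 clones and not in the pool. Among segments with at least 10 reads, 8.91% (pool), 18.6% (clone 3), 7.77% (clone 4), 12.9% (clone 8), 12.5% (clone B52) and 10.5% (clone E9-3) were skewed to Cast. The 5 segments skewed to Cast in all clones were 5.43% of 92, namely Igkv2-137, Igkv9-124, Igkv8-16 and the annotated pseudogenes Igkv11-106 and Igkv12-40. Of these, Igkv2-137 and Igkv9-124 were not skewed in the pool (2.17% of 92), and these names were read off after the counts were seen. In the pool, the call for Igkv2-137 depended on the scaling, since its B6 share was 18.7% after each allele was scaled to its own total. The same scaling lowered its B6 share to 6.43% (clone B52), 1.43% (clone 4) and 0.748% (clone 8).

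In the table of the pool and the clones, no nearby segment had as many Cast reads as Igkv2-137. The 10 nearest counted segments, Igkv1-135 to Igkv14-126 at 54.2 to 340.7 kb from Igkv2-137, gave together on Cast 1.48% (pool), 2.17% (clone 3), 2.38% (clone 4), 1.52% (clone 8), 0.965% (clone B52) and 4.57% (clone E9-3) of the library. Igkv2-137 alone exceeded that sum in every one of these libraries except clone E9-3, and it gave between 40.6% and 75.9% of the Cast reads of the 11 segments. In the time course of clone 4 the order was reversed, with 2.23% of the library on Cast from the 10 neighbours at 48 h against 0.475% from Igkv2-137, which gave 15.0% of the Cast reads of the 11 segments at 36 h and 17.6% at 48 h. In the pool and the 5 clones, these 10 neighbours together had most reads on B6. Their B6 share there ran from 58.2% in clone E9-3 to 78.7% in the pool. In the time course it was 5.56% at 12 h (18 reads), 40.7% at 24 h (59 reads), 54.8% at 36 h and 64.4% at 48 h. Of the 10, 3 were without 3 reads in any of the 6 libraries, namely Igkv17-134, Igkv1-131 and Igkv14-126.

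Igkv1-135, the next segment toward Jκ and on the same strand, had the most B6 reads in the pool and in clones 3 and E9-3. On Cast it was number 3 in clone 4, with 1.78% of the library, and in clone E9-3, with 2.18%, directly behind Igkv2-137 there, and between number 7 and number 15 in the other 4 libraries. Its B6 share was 81.2% (pool), 73.4% (clone 3), 36.9% (clone 4), 21.7% (clone 8), 68.7% (clone B52) and 69.1% (clone E9-3). In clones 4 and 8 both it and Igkv2-137 had most reads on Cast, whereas in the other 4 libraries the 2 segments had most reads on opposite alleles. Igkv1-132, 204.2 kb from Igkv2-137, had a B6 share of 13.5% in clone E9-3 and of 81.2% to 93.5% in the other clones, and with 600 Cast reads (1.75% of the library) it was number 6 on Cast in clone E9-3. At the other end of the locus, Igkv3-1 lies 0.018 Mb before Jκ1 and had a B6 share of 30.2% (pool), 17.6% (clone 3), 37.1% (clone E9-3), 46.7% (clone B52), 74.7% (clone 8, 95 reads) and 79.3% (clone 4, 92 reads). The Jκ-nearest segment thus changed its leading allele between clones, which Igkv2-137 did not.

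**Figure D3:**
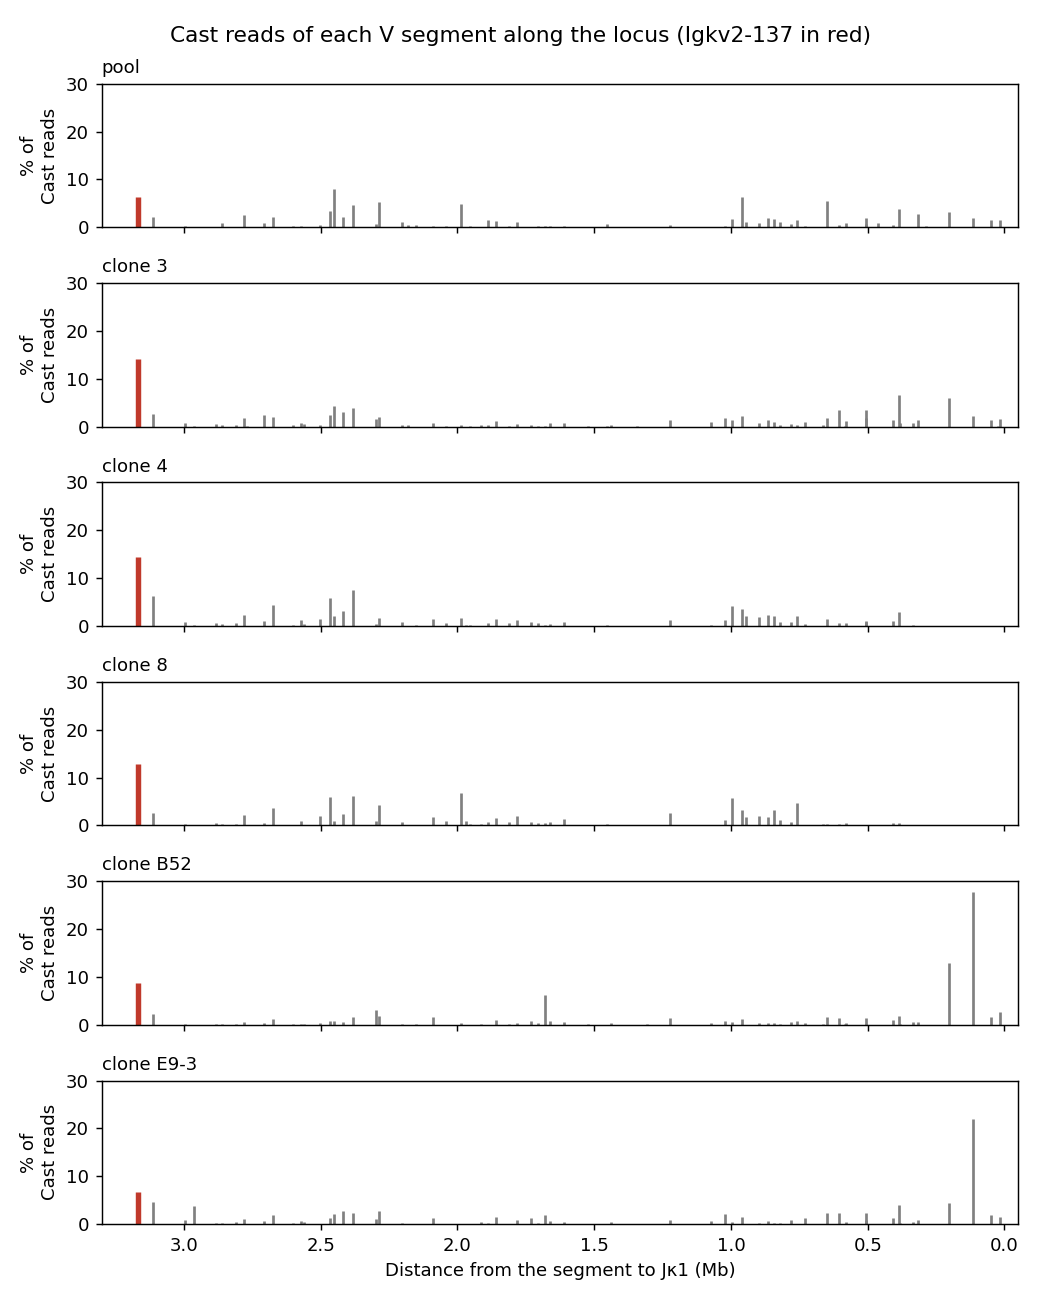
Cast reads of each V segment as a percent of all Cast reads, by distance from the segment to Jκ1 in Mb, in the pool and the 5 clones, with Igkv2-137 in red at 3.166 Mb. The red line is the highest in clones 3, 4 and 8, and in clones B52 and E9-3 the highest line is that of Igkv3-7, at 0.115 Mb.

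The other segments of the Igkv2 family did not reach the Cast level of Igkv2-137 in these 6 libraries. Igkv2-109, its closest relative at 88.7% identity, had between 0.197% and 1.46% of the library on Cast, and its B6 share ran from 14.0% in clone E9-3 to 46.4% in clone 4. Igkv2-112, a functional segment 84.0% identical to Igkv2-137, had between 0.0671% and 0.773% on Cast and a B6 share of 30.8% to 52.4% in the clones. Igkv2-116, an annotated pseudogene 88.0% identical to it, had between 0.0550% and 0.407% on Cast and a B6 share of 28.9% to 58.7% in the clones, and Igkv2-95-2 had no read in any library. All 3 relatives with reads lie between 2.419 and 2.570 Mb from Jκ1 on the same strand, and in each clone their B6 shares were above that of Igkv2-137. In the pool Igkv2-116 was lower, at 14.5%. In the time course of clone 4, Igkv2-116 and Igkv2-109 lay above Igkv2-137 on Cast, with 0.804% and 0.522% against 0.494% at 36 h and with 0.657% and 0.548% against 0.475% at 48 h.

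In the time course of clone 4, Igkv2-137 reached the detection limit of 3 reads only at 36 and 48 h, and all of its reads were on Cast. It had no read among 1737 at 12 h, where 3 reads equal 0.173% of the library and the Wilson interval reaches 0.221%, and 2 Cast reads at 24 h, below the detection limit of 3 reads. At 36 h it had 35 Cast reads, or 0.494% of the library (interval 0.355 to 0.686), and at 48 h 52, or 0.475% (0.362 to 0.622). The last 2 levels were not distinguishable by counting, with a ratio of 1.04 (interval 0.678 to 1.59), and the interval at 24 h, 0.0467 to 0.619, contained both. Over the Cast reads alone, the interval of the 12 h library reached 1.38% (0 of 274, where 3 reads equal 1.09%), and the later libraries gave 0.830% (24 h, 0.228 to 2.97), 2.07% (36 h, 1.49 to 2.87) and 2.04% (48 h, 1.56 to 2.66). Among the Cast segments it was number 14 at 36 h, when Igkv11-106 led with 206 reads, and number 16 at 48 h.

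Absence at 12 h was common on Cast, where 15 segments had at least 3 reads against 60 at 48 h, and 9 of the 10 nearest segments had none. Igkv1-135 already had 17 Cast reads at 12 h and was among the 3 most abundant Cast segments at each time. Igkv10-96, the leading Cast segment at 12 h, had 151 reads there (8.69% of the library) and 99 at 48 h (0.903%). On B6, Igkv19-93 had 1018 of the 1737 reads at 12 h. The interval of Igkv2-137 at 12 h, up to 1.38% of Cast reads, ended below that at 36 h, from 1.49%, whereas at 24 h the interval included that level.

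No B6 read of Igkv2-137 was found in the time course, against 89 Cast reads over the 4 libraries, for which the Wilson interval of the B6 share reaches 4.14% and 3 reads equal 3.37%. At the B6 share of the other clone 4 library, 3.56%, about 3.29 B6 reads would go with 89 Cast reads, so that a fall of the B6 share was not detectable at this depth. Its 35 and 52 reads at 36 and 48 h were skewed to Cast, as for 10.3% and 10.7% of segments with at least 10 reads, and it was under 10 reads at 12 and 24 h, where 28.6% and 8.82% of such segments were skewed. Relative to the whole library it was lower, since the B6 level of that library corresponds to 16.4 reads at the depth of the 48 h time point. Of the 82 segments for which at least 10 B6 reads would be seen in the same way, 5 had none in the time course (6.1%), namely Igkv2-137, Igkv11-125, Igkv4-68, Igkv4-72 and Igkv4-74. In the other clone 4 library these had 97, 99, 1156, 192 and 144 B6 reads, in this order, the fewest being those of Igkv2-137.

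The libraries of clone 4 at 48 h gave very different levels of Igkv2-137, although both come from the same clone and the same time without IL-7. Its Cast level was 4.06% (interval 3.91 to 4.21) in the library tabled with the other clones and 0.475% (0.362 to 0.622) in the time course, an 8.55-fold difference (interval 6.50 to 11.2). At the level of the first library, 444.6 Cast reads would have been seen at the depth of the second, against 52 found. The ratio on the scale of Cast reads, from 14.4% to 2.04%, was 7.04 (interval 5.37 to 9.24). This difference was larger than the 2.29-fold range over the 5 clones, so that the order of the clones given above is not shown to be larger than the spread between libraries of 1 clone.

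Large differences between these libraries were found in both directions on Cast. Over the 47 segments with at least 20 Cast reads in the time course library, or to be seen there from the level of the other library, the median difference in either direction was 1.74-fold, and 23 were higher in the time course. By size of the difference Igkv2-137 was number 6 of the 47, with counts under the detection limit set to that limit. This place is not exact, since Igkv8-30 and Igkv10-95, directly behind it at 7.29-fold and 6.83-fold, were at that limit. Their values are therefore lower bounds, and either may exceed the 8.55-fold of Igkv2-137. Of the 47, 9 differed at least 4-fold (19.1%). Those higher in the time course were Igkv4-59, with 30 reads against 0 and thus at least 59.0-fold, Igkv1-117, 10.1-fold, and Igkv6-29, 9.96-fold. Those lower there (12.8% of the 47) were Igkv15-103 and Igkv8-30, with 1 and 0 reads against 54.9 and 21.9, Igkv10-95 with 2 against 20.5, Igkv6-25 with 4 against 36.1, Igkv8-24 with 5 against 25.9, and Igkv2-137. Of the Igkv2 relatives, Igkv2-109 was 1.60-fold and Igkv2-112 1.39-fold lower in the time course and Igkv2-116 1.86-fold higher, and Igkv1-135 was 1.22-fold lower. The methods give a pair of read lengths without naming the libraries of each, and whether read length differed between the tables was not tested.

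**Figure D4:**
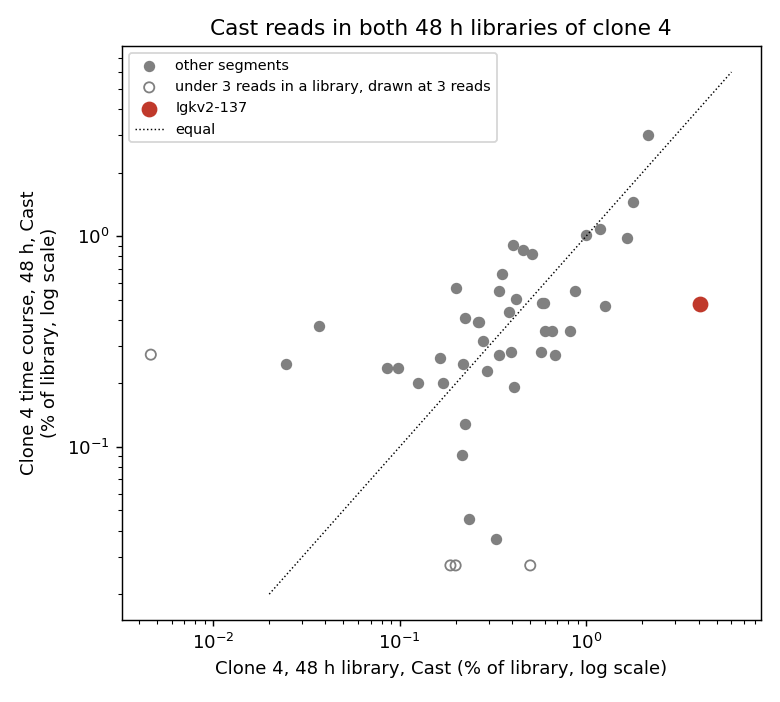
Cast reads as a percent of library in the clone 4 library of the table of the pool and the clones (x axis) and in the 48 h library of the time course (y axis), both on log scales, for the 47 segments with at least 20 Cast reads in the latter or to be seen there from the level of the former. Open circles had under 3 reads in 1 of the libraries and are drawn at that limit, the dotted line marks equal levels, and Igkv2-137 (red) lies 8.55-fold below it.

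The segments most like Igkv2-137 were sought by Spearman's rho over 12 values, the percent of library on B6 and on Cast in the pool and the 5 clones, for 104 other segments with at least 20 reads. The highest were Igkv11-106 (rho 0.85), Igkv12-40 (0.82), Igkv9-128 (0.82), Igkv9-124 (0.80) and Igkv1-122 (0.76), against a median of -0.46 over all 104. The values share libraries and depth, and over the 6 Cast values alone Igkv9-128 was the only one of these 5 that remained among the 5 highest. Igkv11-106, Igkv12-40 and Igkv9-128 are annotated as pseudogenes and were without a B6 read throughout, and Igkv9-128 was rare, at 0.0538% of the library or less on Cast. Igkv9-124 and Igkv1-122 are functional and were read on both alleles. Igkv9-124, which lies 2.780 Mb from Jκ1 on the opposite strand, had a B6 share of 22.2% in the pool and between 0.706% and 14.2% in the clones, and a Cast level of 0.237% to 1.11% of the library. Within the Igkv2 family rho over the 12 values was 0.57 for Igkv2-109, 0.48 for Igkv2-116 and -0.01 for Igkv2-112. Over the 6 Cast values alone it was 0.37, 0.94 and 0.31, in this order. The highest rho over these Cast values was that of Igkv2-116 and of Igkv9-129, at 0.94 each. Igkv9-129 lies 284.3 kb from Igkv2-137. With the time course included, over all 20 columns, rho was 0.24 for Igkv2-109, 0.18 for Igkv2-116 and 0.19 for Igkv2-112.

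Because of its size, Igkv2-137 moved the allelic balance of whole libraries. Without it the B6 share of all reads was 54.8% in place of 51.2% in clone 3, where the shift was the largest of the 10 libraries, at 3.59 percentage points. The shift was 3.11 points (clone 8), 3.00 (clone 4), 1.90 (clone B52), 1.64 (clone E9-3) and 1.25 (pool). In the time course it was at most 0.378 points. Over both alleles Igkv2-137 was the most abundant segment of clones 3 and 8, with 7.24% and 4.80% of the library, and ranked number 2 (clone 4), 4 (clone B52), 5 (clone E9-3) and 6 (pool).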

How the data were processed

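Per the labels and methods, reads were trimmed (Trim Galore in the submitters' processing notes), mapped by bowtie2 against an assembly holding both strains, with known Cast variants put into the reference, and assigned to V segments by HTseq-count. The tables deposited by the authors list unnormalized counts of 112 segments, with a column for each allele, and no column was without a sample. From the counts, percents of library and allele, ranks, B6 shares and ratios were computed in pandas 2.3.3, SciPy 1.17.1 and NumPy 2.4.6 under Python 3.11.15; sequence identity came from local alignments with Biopython 1.88, and figures from matplotlib 3.10.9. Intervals are 95% Wilson intervals for shares and delta-method intervals for ratios. Detection was set at 3 reads, shares were compared from 10 reads and likeness from 20. No count model was fitted, since each clone and time has 1 library within a table, and the likeness measure and scaling were tested on simulated data. Coordinates are those of GENCODE M21 on mm10, the authors' build, in which 111 of 112 segments were found by name; bases were read from the RefSeq assembly GRCm38.p6.

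The segment and lists were chosen with earlier results of these data known. The segments named are Igkv2-137, the other Igkv2 segments, the 10 nearest segments, the Jκ-nearest segment, the most abundant segment on each allele of each library and the 5 most like Igkv2-137; others were named after their values were seen. Alternatives varied the denominator, the scaling of alleles and libraries, the segments ranked and the measure of likeness. ATAC-seq and nuclear RNA samples were not analysed here.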

Additional observations from a re-analysis of the deposited data

How the results depend on the processing

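With functional segments only in the denominator, the Cast percent of library of Igkv2-137 was 2.83% (pool), 7.19% (clone 3), 4.31% (clone 4) and 5.14% (clone 8). With segments holding at least 3 reads on each allele it was 2.98%, 7.30%, 4.52% and 5.32% there and 3.14% (clone B52). Without the most abundant other segment it was 2.84% (pool), 7.12% (clone 3), 4.21% (clone 4), 4.89% (clone 8), 3.35% (clone B52) and 3.47% (clone E9-3). With each allele scaled to its own total, the B6 share was 18.7% (pool), 1.43% (clone 4), 0.748% (clone 8) and 6.43% (clone B52). Among functional segments the Cast rank in the time course was 12 at 36 h and 13 at 48 h, and the ranks of 17 at 12 h, with no read, and 22 at 24 h, with 2 reads, describe no measured level. With median-of-ratios size factors, which shifted all ratios to the pool by 0.76 (log2) in clone B52, 0.25 (clone E9-3) and 0.12 (clone 3), the log2 ratio of the Cast level to the pool was 1.45 (clone 3), 0.75 (clone 8), 0.90 (clone B52) and 0.44 (clone E9-3), against 1.33, 0.80, 0.13 and 0.19. Of the 5 most like segments, 1 was kept over the 6 Cast values and 3 over all 20 columns. Over those Cast values rho was 0.14 for Igkv12-40 and Igkv9-124, 0.20 for Igkv1-122 and 0.37 for Igkv11-106. Of 81 alternative values, 29 moved, as given above, and 32 kept within the limit set for them. The other 20 were values of likeness without an interval (15 of rho and 5 of Pearson's r). Only the log2 ratios and the values of likeness could change sign, and none of them did. The list of 47 segments compared between the libraries of clone 4 was chosen after seeing the data; among the 39 chosen by the library tabled with the other clones alone, 6 differed at least 4-fold. No paired analysis was possible because the labels of these libraries give no replicate numbers that groups share; the alleles are paired within a library, but their difference in Igkv2-137 was known when it was chosen and was given no test. Depth limits the time course at 12 and 24 h, where 3 reads equal 0.173% and 0.256% of the library. Leaving out clone 3 was chosen after seeing the data.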
